A study of Mus musculus with 24 samples.

Results

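The 5 troponin genes, Tnni1, Tnni3, Tnnt1, Tnnt2 and Tnnc1, were followed in mouse cardiomyocyte nuclei through the first postnatal days. They were chosen by name as the troponin genes of slow skeletal and cardiac muscle, with earlier results of these data, their course over the days included, already known, and are 5 of the 56923 gene identifiers in the count files. Nuclei were sorted by PCM1 staining from pooled hearts at postnatal day (P) 1, 7 and 14, with 15, 6 and 2 hearts per pool, and their RNA was read as 3′ tags. Controls carried XMLC2(-)Casp2(fl/fl) and Casp2-depleted animals XMLC2(+)Casp2(fl/fl). Both genotypes therefore carry the floxed Casp2 allele on a C57BL/6N background, and they differ by a Cre transgene driven by the XMLC2 promoter, which acts in cardiomyocytes. Animals of both sexes were used. Of 24 libraries, 4 per day and genotype, the study left out 3, namely replicate 1 of P1 control, replicate 3 of P14 control and replicate 1 of P14 Casp2-depleted, which leaves 3 at P1 control and at both P14 groups and 4 elsewhere.

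Troponin is the calcium switch of the thin filament of striated muscle. Its C subunit binds calcium, its I subunit holds back the interaction of actin with myosin, and its T subunit anchors the complex to tropomyosin. The fetal heart makes the slow skeletal troponin I encoded by Tnni1, and after birth the cardiac form encoded by Tnni3 replaces it. Tnni3 differs by an extension at its amino terminus that protein kinase A phosphorylates. Tnnt2 encodes cardiac troponin T, Tnnt1 the slow skeletal form, and Tnnc1 the troponin C shared by slow skeletal and cardiac muscle.

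The 21 kept libraries held 891817 to 2924097 reads on genes, and 3 reads, the limit taken for a count of 0, corresponded to 1.03 to 3.36 CPM, the usual unit of reads scaled to the library size. The P14 libraries differed from those of P7 in quality. Between 63.7 and 76.1% of their reads fell on no gene, against 34.3 to 64.3% at P7, and 7628 to 13651 genes were detected, against 14006 to 17770. All 8 cardiomyocyte markers listed had reads, and their summed level was 48419 to 73422 CPM in P7 control, 10513 to 41770 in P14 control and 13445 to 23962 in P14 Casp2-depleted libraries. The 10 fast skeletal markers summed to 10.1 to 61.1 CPM in P7 control and 276 to 352 CPM in P14 control (P14 Casp2-depleted 76.2 to 277), with Tnni2 and Tnnc2 at 0 reads. The rise was not shared by all of them, since 4 of the 7 tested had a log2 fold change above 0 in controls (median 0.45). P1 control libraries stood apart from P7 control in the same direction, with 60.7 to 73.9% of reads on no gene against 36.7 to 54.7% and cardiomyocyte markers at 13483 to 34889 CPM, while the P1 Casp2-depleted libraries (36.8 to 70.6% and 17646 to 60254 CPM) overlapped P7. The part that these differences have in the day contrasts below was not tested. Casp2 itself had 0 reads in every kept library of P1 and P14, and 9 and 8 reads over the P7 control and P7 Casp2-depleted libraries, too few to check the genotype labels.

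The genes lie in 2 pairs and 1 single locus (GRCm39, GENCODE vM39). Tnni1 (chromosome 1, 135707172 to 135738727, plus strand) and Tnnt2 (chromosome 1, 135763738 to 135780315, plus strand) are 25.0 kb apart. Tnnt1 (chromosome 7, 4507567 to 4519381) and Tnni3 (chromosome 7, 4521300 to 4527228), both on the minus strand, are 1.92 kb apart. So each slow gene neighbours a cardiac gene of the other subunit. The gene between Tnni1 and Tnnt2, Lad1, had 48 reads in the 21 libraries, and Dnaaf3, which overlaps the 5′ side of Tnni3 by 1297 bases on the same strand, had 3, where Tnni1 had 17805, Tnnt2 366669 and Tnni3 28503. Tnnc1 (chromosome 14, 30930232 to 30933708, plus strand) lies wholly inside Nisch on the opposite strand. Tnnc1 had 59268 reads and Nisch 9204. Of 508 protein-coding genes lying inside a gene of the opposite strand 56.3% had at least 10 reads, against 2.17% of 323 inside a gene of the same strand. Tnni1 encodes 187 amino acids in the canonical transcript, Tnni3 211, Tnnt1 275, Tnnt2 269 and Tnnc1 161.

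Tnni1 was high at P1 and P7 and without a read in P14 controls. Levels are CPM on TMM-scaled library sizes. At P1 the control libraries held 608, 1263 and 914 CPM and the Casp2-depleted libraries 677, 924, 607 and 1482 CPM. At P7 the controls held 689, 562, 356 and 463 CPM and the Casp2-depleted libraries 579, 978, 596 and 424 CPM. The P7 and P1 ranges overlapped in each genotype. The log2 fold change from P1 to P7 was -0.84 (SE 0.54) in controls and -0.52 (SE 0.50) in Casp2-depleted nuclei, given with no test. On library totals without TMM scaling the ranges did not overlap in controls, where all 4 P7 libraries were below all 3 P1 libraries. The change in controls on that scale was -1.29 (SE 0.50), beside a median of -0.14 over all genes. At P14 the 3 controls had 0 reads each, while the Casp2-depleted libraries had 62, 5 and 1 reads, or 43.6, 3.14 and 0.653 CPM.

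The order of the Tnni1 means was P1 control (928 ± 328 CPM, SD, n = 3), P1 Casp2-depleted (922 ± 397, n = 4), P7 Casp2-depleted (644 ± 236, n = 4), P7 control (518 ± 142, n = 4), P14 Casp2-depleted (15.8 ± 24.1, n = 3) and P14 control (0 in each of 3). Neighbours in the first 4 places overlapped. Against a floor of 3 reads over the group, Tnni1 was at least 719-fold lower in P14 than in P7 controls, and at least 422-fold lower on library totals. Without 1 of the 3 P14 control libraries the floor rises and the bound is 469 to 486-fold. In Casp2-depleted nuclei the pooled level was 42.0-fold lower at P14 than at P7, 23.9-fold on library totals, and 327-fold lower without P14 Casp2-depleted replicate 2, which held 62 of the 68 reads. Of 269 genes with at least 546 reads in every P7 control library, the lowest count of Tnni1 there, Tnni1 was the 1 gene with 0 reads in all 3 P14 controls. In the P14 Casp2-depleted libraries the 1 such gene of the 269 was Cdc37l1. Both genes were singled out after their values were seen.

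**Figure D1:**
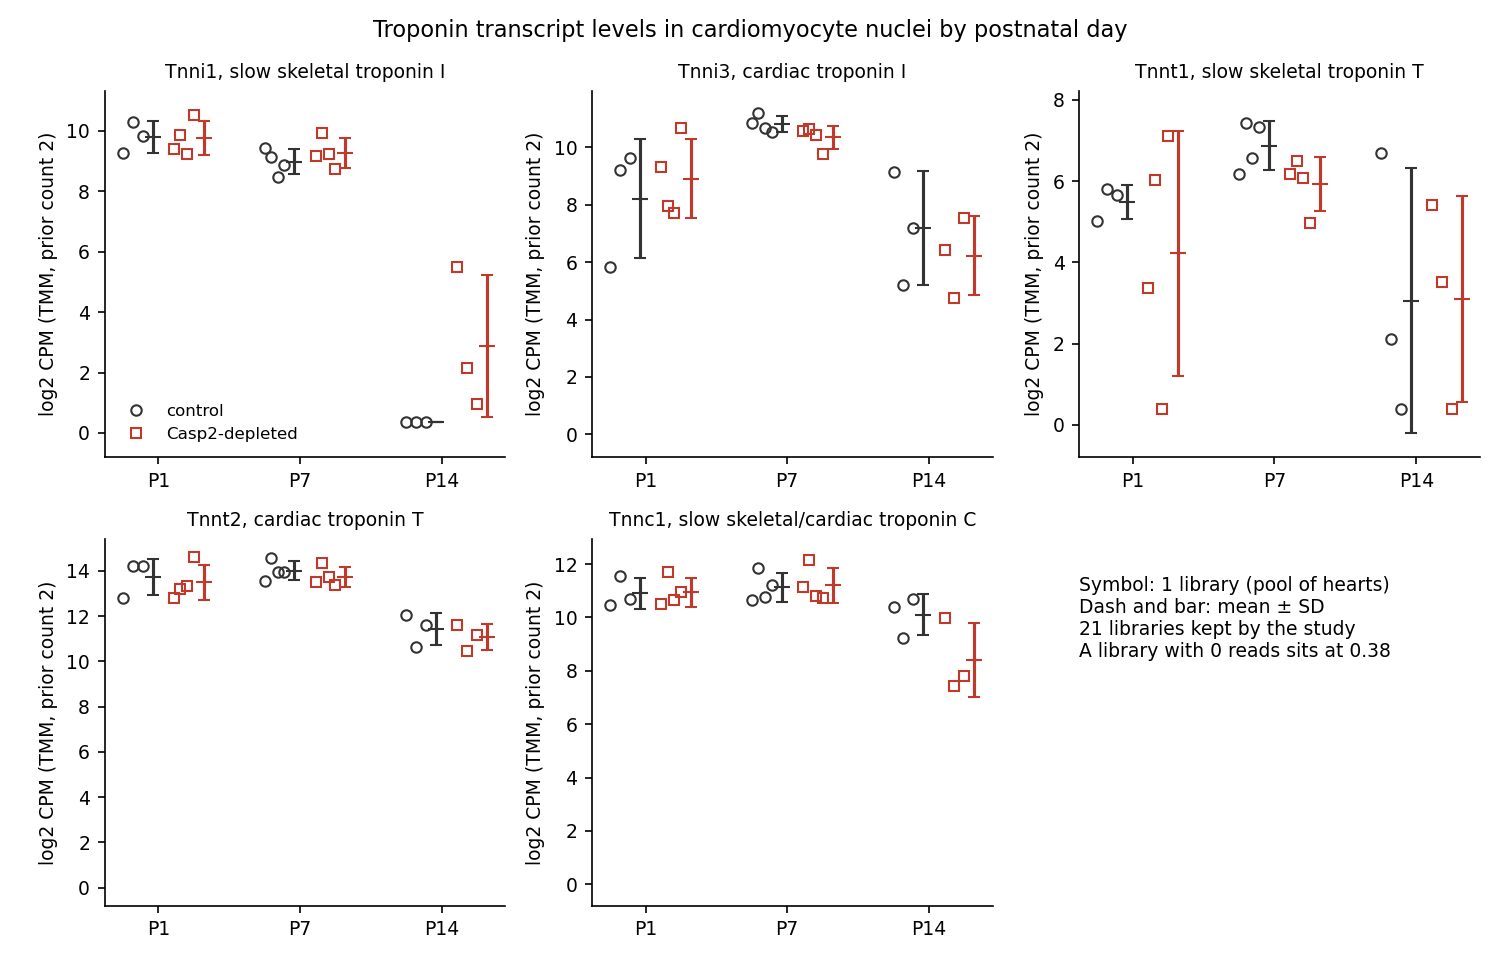
Levels of the 5 troponin genes by postnatal day, as log2 CPM (TMM, prior count 2) on the vertical axis. Each symbol is 1 kept library (circles control, squares Casp2-depleted), with the mean and SD beside it. Tnni1 is high in every P1 and P7 library and sits at 0.38, the value of 0 reads, in the 3 P14 controls, and Tnni3 peaks at P7.

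Tnni3, the cardiac troponin I, had its highest mean level at P7 and its lowest at P14. At P1 it held 55.2, 591 and 786 CPM in controls and 639.5, 249, 207 and 1627 CPM in Casp2-depleted libraries. P1 control replicate 2 was about an order of magnitude below the other P1 controls. At P7 it held 1858, 2332, 1648 and 1488 CPM in controls and 1511, 1602, 1393 and 878 CPM in Casp2-depleted libraries. Every P7 control exceeded every P1 control, whereas in Casp2-depleted nuclei 1 P1 library was above all 4 at P7. The log2 fold change from P1 to P7 was 1.94 (SE 0.51) in controls, with alternatives from 1.37 without P1 control replicate 2 to 2.85 with limma-voom. It was 0.98 (SE 0.45) in Casp2-depleted nuclei, with alternatives from 0.68 without P1 Casp2-depleted replicate 3 to 1.84 without P1 Casp2-depleted replicate 4, the library of 1627 CPM. At P14 it held 569, 35.1 and 146 CPM in controls and 83.6, 25.8 and 183 CPM in Casp2-depleted libraries, all below the P7 libraries of their genotype. The label of a change from slow to cardiac isoform describes the ratio of Tnni1 to Tnni3 reads from P1 to P7, given below. It does not describe the ratio in P14 Casp2-depleted replicate 2, which stood at the level of P7, nor the level of Tnni3 at P14. Its means ran from P7 control (1831 ± 366 CPM, n = 4) over P7 Casp2-depleted (1346 ± 323, n = 4), P1 Casp2-depleted (681 ± 660, n = 4), P1 control (478 ± 379, n = 3) and P14 control (250.2 ± 282, n = 3) to P14 Casp2-depleted (97.4 ± 79.5, n = 3), and each neighbour in that order overlapped the next.

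The ratio within each library does not depend on library size. Tnni1 reads as a share of Tnni1 and Tnni3 reads, here the slow share, were 91.7%, 68.1% and 53.7% in the P1 controls. In P1 Casp2-depleted libraries the slow share was 51.4%, 78.8%, 74.6% and 47.7%. At P7 it was 27.0%, 19.4%, 17.8% and 23.7% in controls, all below the P1 controls. In P7 Casp2-depleted libraries it was 27.7%, 37.9%, 30.0% and 32.6%, below the P1 libraries of that genotype and above all 4 P7 controls. The nearest libraries of the 2 genotypes were at 27.0% (95% Wilson interval 25.8 to 28.3%) and 27.7% (26.4 to 29.0%), so that gap lies within counting error. The median share was 31.3% in Casp2-depleted and 21.6% in control libraries at P7, and no test was made of this share since it is built from the chosen genes.

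At P14 the slow share was 0 of 808, 0 of 47 and 0 of 193 troponin I reads in controls, which allows shares of up to 0.371%, 6.38% and 1.55%. In P14 Casp2-depleted libraries it was 34.3% of 181 reads (interval 27.7 to 41.4%), 10.9% of 46 reads (4.73 to 23.0%) and 0.356% of 281 reads (0.0628 to 1.99%). The last lies within the limits of the controls and the first stands at the level of P7. Intervals and limits cover counting error only. The share compares libraries and is not the share of molecules, since the count covers the whole gene and Tnni1 spans 31.6 kb against 5.93 kb of Tnni3. Per kb of gene span the median shares were 28.6% at P1, 4.93% at P7 and 0% at P14 in controls, and 26.1%, 7.88% and 2.24% in Casp2-depleted nuclei.

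**Figure D2:**
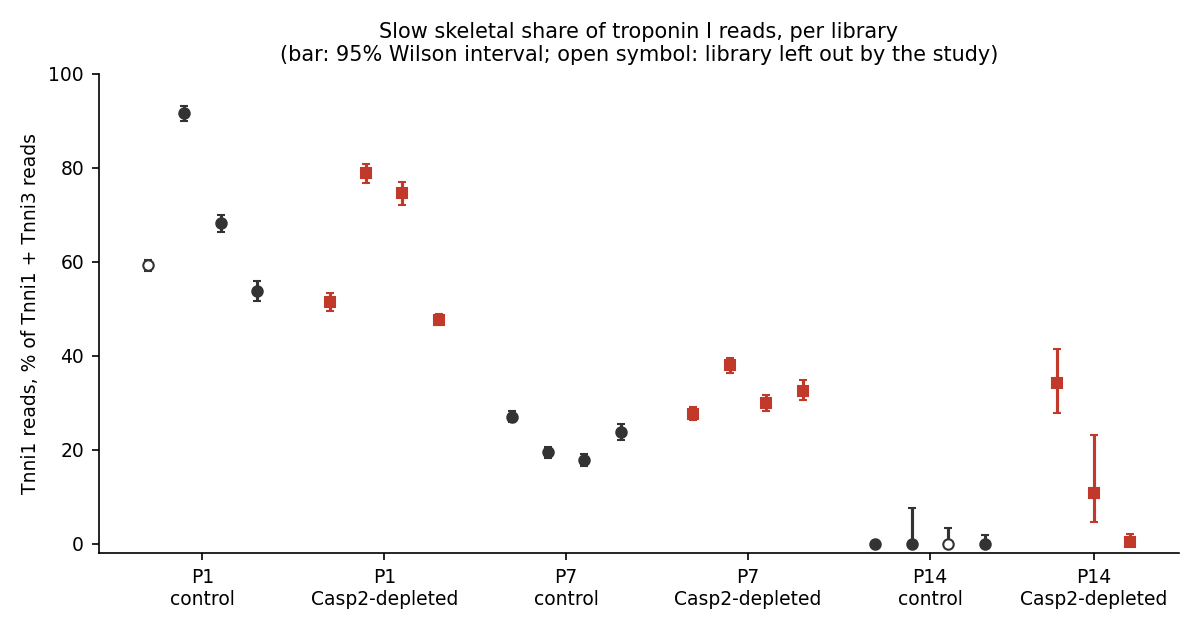
Tnni1 reads as a percentage of Tnni1 and Tnni3 reads in each library, by group along the horizontal axis, with 95% Wilson intervals. Open symbols are libraries the study left out, and 1 of these (P14 Casp2-depleted replicate 1) had no troponin I read and is not drawn. The share falls from 47.7 to 91.7% at P1 to 17.8 to 37.9% at P7 and 0 to 34.3% at P14 in the kept libraries.

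The sequences before the starts of the troponin I genes are shown because the slow share of their reads was lower at P7 than at P1 in every library of each genotype. They come from the RefSeq promoter table of GRCm38.p6, which held all 5 genes, and were placed on GRCm39 by an exact and single match. The stretch free of annotated exons is printed. For Tnni1 it runs from 250 to 20 bases before the first listed RefSeq start (chr1:135726909-135727139, plus strand), inside the longest gene model. For Tnni3 it runs from 166 to 23 bases before the start (chr7:4525550-4525693, minus strand).
Tnni1: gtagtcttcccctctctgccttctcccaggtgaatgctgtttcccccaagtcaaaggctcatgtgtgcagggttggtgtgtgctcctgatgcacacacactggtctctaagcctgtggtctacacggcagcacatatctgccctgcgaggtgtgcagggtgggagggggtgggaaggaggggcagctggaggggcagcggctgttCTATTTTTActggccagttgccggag
Tnni3: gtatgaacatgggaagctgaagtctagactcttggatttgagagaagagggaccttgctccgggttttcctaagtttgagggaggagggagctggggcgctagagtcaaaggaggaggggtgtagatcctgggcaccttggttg
Capitals mark CTATTTTTA, the letters of a MEF2 site, which starts 45 bases before the Tnni1 start. In the 300-base windows (250 before the start and 50 after) 5 motifs were searched on both strands. CTATTTTTA was found for Tnni1 alone of the 5 genes, and in 0.493% of the 32841 promoters of the table. GATAA, the core of a GATA site, was found in the windows of Tnni3 and Tnnt2 (25.4% of promoters), CATTCC, the TEAD site, for Tnnt2 and Tnnc1 (14.7%), TATAAA for Tnnt1 (13.6%), and the E-box CANNTG for all 5 genes (72.3%). The first listed start was used for each gene, and no 2 motifs searched share letters in the printed stretches. A match describes letters and is not a binding site.

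Tnnt2, the most read of the 5, differed little between P1 and P7 and was lower at P14. It held 7230, 18948 and 18899 CPM in P1 controls and 7069, 9516, 10354 and 24991.5 CPM in P1 Casp2-depleted libraries. At P7 it held 11895.5, 24191, 15738 and 15827.5 CPM in controls and 11553, 21117, 13429 and 10620.3 CPM in Casp2-depleted libraries. The log2 fold changes from P1 to P7 were 0.17 (SE 0.27) in controls and 0.13 (SE 0.25) in Casp2-depleted nuclei. Alternatives ran from -0.30 to 0.37 in controls and from -0.14 to 0.87 in Casp2-depleted nuclei. The highest was with limma-voom (0.87, SE 0.13), beside a median of 0.40 over all genes. At P14 it held 4216, 1596 and 3142 CPM in controls and 3102, 1413 and 2319.7 CPM in Casp2-depleted libraries, all below every P1 and P7 library. P14 control replicate 3, which the study left out, held 19170 CPM of its reads on genes, at the level of P1 and P7, where the kept P14 controls held 4678, 2078 and 4656 on that scale.

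Tnnt1, the slow skeletal troponin T, was never more than a small part of the troponin T reads. It held 31.2, 54.8 and 49.1 CPM in P1 controls and 9.02, 63.6, 0 and 138 CPM in P1 Casp2-depleted libraries. At P7 it held 70.9, 172, 93.3 and 161 CPM in controls, each above every P1 control, and 70.8, 88.5, 65.8 and 30.1 CPM in Casp2-depleted libraries, which overlapped P1. At P14 it held 103, 2.99 and 0 CPM in controls and 41.5, 10.1 and 0 CPM in Casp2-depleted libraries. Its share of Tnnt1 and Tnnt2 reads had medians of 0.288% at P1 and 0.648% at P7 in controls and lay between 0 and 2.38% in all kept libraries. The slow share of troponin T thus showed no fall like that of troponin I between P1 and P7. The fast skeletal genes were nearly silent. Tnni2 and Tnnc2 had 0 reads in the 21 libraries, and Tnnt3 had 50, of which 38 in P1 Casp2-depleted replicate 1.

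Tnnc1 encodes the calcium-binding subunit that both isoform sets share. It held 1425, 3003.5 and 1633 CPM in P1 controls and 1446, 3350.2, 1592 and 1960.3 CPM in P1 Casp2-depleted libraries. At P7 it held 1619, 3709.7, 1741 and 2352 CPM in controls and 2259.8, 4503, 1778 and 1689 CPM in Casp2-depleted libraries, which overlapped P1 in both genotypes. At P14 it held 1344, 601 and 1653 CPM in controls, overlapping P7, and 1007, 173 and 221 CPM in Casp2-depleted libraries, all below P7.

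All 5 genes were lower at P14 than at P7 in both genotypes, by unequal amounts. In bulk samples fewer cells of a type and less RNA per cell cannot be told apart. The log2 fold change in controls was -2.87 (SE 0.54) for Tnni3, -2.50 (SE 0.29) for Tnnt2, -1.81 (SE 1.13) for Tnnt1 and -0.97 (SE 0.42) for Tnnc1. In Casp2-depleted nuclei it was -3.79 (SE 0.56) for Tnni3, -2.64 (SE 0.29) for Tnnt2, -1.89 (SE 1.14) for Tnnt1 and -2.45 (SE 0.44) for Tnnc1, and -5.35 (SE 0.69) for Tnni1. Single libraries moved some of these values. Without P14 control replicate 1 the change in controls was -4.34 (SE 0.68) for Tnni3 and -6.30 (SE 1.71) for Tnnt1. Without P14 Casp2-depleted replicate 2 the change in Casp2-depleted nuclei was -8.34 (SE 0.97) for Tnni1 and -3.70 (SE 0.56) for Tnnc1. The 5 genes were chosen with their course over the days known, so these day contrasts are given with no test. The median of all genes tested moved too, by -0.75 in controls and -0.61 in Casp2-depleted nuclei. Relative to that median Tnnc1 changed by -0.22 and Tnni3 by -2.12 in controls. On library totals the median of all genes was -0.00 in controls and Tnnc1 changed by -0.11 (SE 0.33), while Tnni3 (-2.19) and Tnnt2 (-1.70) stayed lower. With all 24 libraries, among them P14 control replicate 3, Tnnt2 changed by -1.20 (SE 0.27) in controls, beside a median of -0.91.

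**Figure D3:**
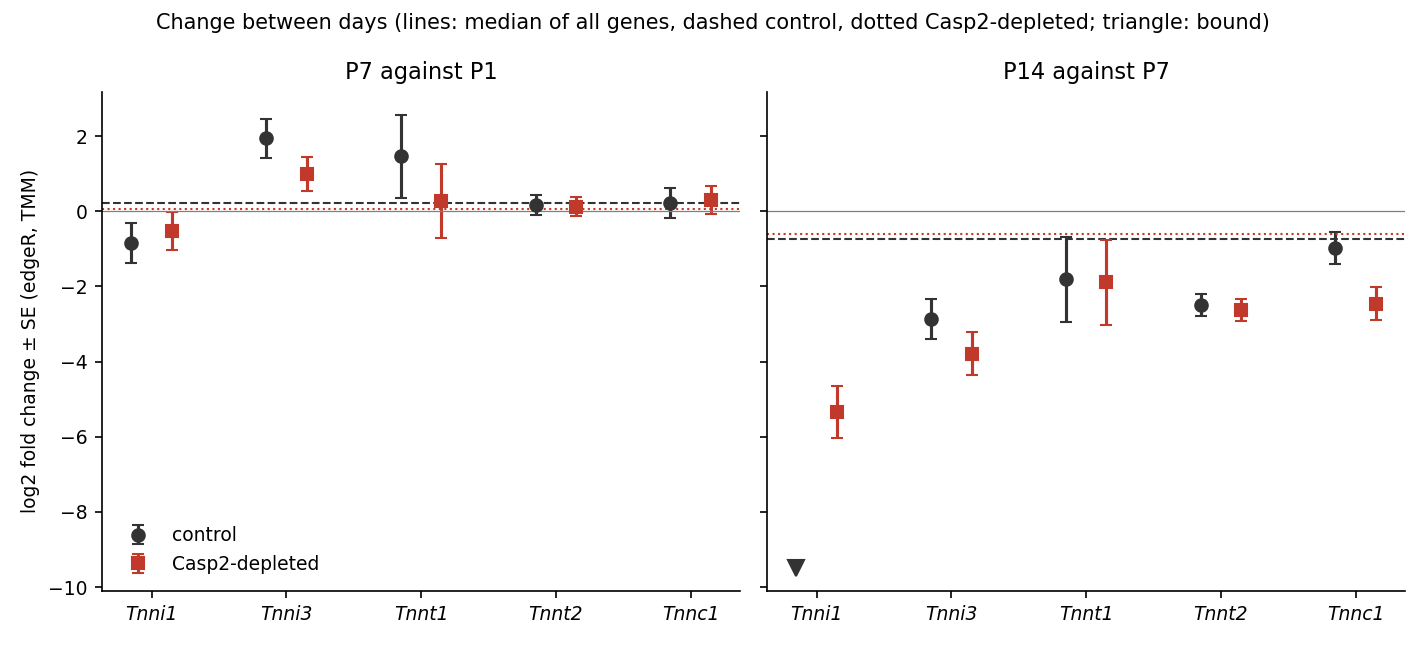
Change of each gene between days as log2 fold change with its standard error, in controls (circles) and Casp2-depleted nuclei (squares). Lines mark the median of all genes tested, and the triangle is the bound for Tnni1 in controls, at least 719-fold lower at P14. From P1 to P7 the values of Tnni3 lie above 0 and those of Tnni1 below it, with no test made. All 5 genes lie below 0 from P7 to P14. On library totals, not drawn, Tnni1 changed by -1.29 (SE 0.50) from P1 to P7 in controls.

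Other genes of the sarcomere and its regulators were counted from lists written with earlier results known. A gene was called at an adjusted p below 0.05 (quasi-likelihood F-test of edgeR, Benjamini-Hochberg over 20368 genes) and an absolute log2 fold change above 1. From P1 to P7 in controls 3 of 11 thick filament genes were called higher, against 0.0491% of all genes. They were Mybpc3, the cardiac myosin-binding protein C (2.21, SE 0.38), Myh6, the adult myosin heavy chain (1.56, SE 0.30), and Ttn, the giant spring of the sarcomere (2.22, SE 0.26). The median of that list was 1.56, beside 0.21 over all genes. None of the 11 was called with DESeq2 or limma-voom, which called 88 and 49 of all genes against 10 as reported. None was called either with filterByExpr, robust dispersions or only the groups compared, which called 0, 2 and 1 of all genes. With all 24 libraries 2 of the list were called among 6 of all genes, and only Ttn without P1 control replicate 2, while the other filter and scalings kept the same 3. None of the 13 thin filament genes, 17 kinases and phosphatases acting on troponin I, 12 cardiac transcription factors, 10 thyroid hormone receptors and partners or 9 regulators of Tnnt2 splicing that were tested was called there by this fit. The medians of these lists were 1.35 (thin filament), 0.26 (kinases and phosphatases), 0.91 (transcription factors), 0.94 (thyroid hormone list) and 1.31 (splicing regulators). The 8 cardiomyocyte markers, which include the 3 called genes, had a median of 1.61. In Casp2-depleted nuclei 0.0245% of all genes were called between these days and no gene of the 6 lists. Without P1 Casp2-depleted replicate 4 the same 3 thick filament genes and Lmod2 of the thin filament list were called higher there. Ttn alone was called without P7 Casp2-depleted replicate 4 or with a replicate block. The replicate block called 7 of 20368 genes between these days, against 5 as reported. For the fits with a library left out that number is not given here.

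From P7 to P14 in controls 1.92% of all genes were called lower. Of the thin filament genes 3 of 13 were called lower, namely Tmod1, which caps actin filaments (-3.13), Actc1, cardiac actin (-3.13), and Tpm1, the tropomyosin that troponin T binds (-2.39). Of the thick filament genes 6 of 11 were called lower, led by Mybpc3 (-3.08), Myl3 (-2.95) and Myom1 (-2.46). Of the kinases and phosphatases 3 of 17 were called lower. Ppp2cb, a catalytic subunit of phosphatase 2A, had 0 reads at P14 and was at least 38.3-fold lower. Prkar1a, a regulatory subunit of protein kinase A, fell from 1048 to 5 reads, and Tnni3k, a kinase named for its binding to cardiac troponin I, changed by -1.70. Of the cardiac transcription factors 5 of 12 were called lower, led by Gata6 (-4.42), Mef2a (-3.20) and Mef2d (-2.43). Of the thyroid hormone list 1 of 10 was called, the corepressor Ncor1 (-1.81). Of the splicing regulators 1 of 9 was called, Rbm20 (-1.55), which also directs the splicing of titin. With 1 library left out, 0 to 2 genes of the thyroid hormone list and 0 to 2 splicing regulators were called lower. These counts depended on scaling and libraries. Of all genes, 394 were called in either direction as reported, 123 on library totals, 51 with all 24 libraries, 1031 with DESeq2 and 1150 with limma-voom. On library totals and with all 24 libraries the genes called lower were 1 and 0 of the thin filament, 4 and 1 of the thick filament, 1 and 1 of the kinase and phosphatase, and 1 and 0 of the transcription factor list. Although limma-voom called more genes in all, it called 1 of the thick filament and 2 of the transcription factor list. With only the groups compared, which called 125 of all genes, the thin filament count was 1 and the thick filament count 2. The kinase and phosphatase count was 1 there and the transcription factor count 2. With robust dispersions the thick filament count was 2. With 1 library left out, 1 to 5 thin filament genes were called (1 without P7 control replicate 2 or P14 control replicate 2 or 4, 5 without P14 control replicate 1) and 4 to 6 of the thick filament. Of the kinases and phosphatases 1 to 3 were called (1 without P7 control replicate 2, P14 control replicate 4 or P14 Casp2-depleted replicate 3), and of the transcription factors 1 to 6, with 1 without P14 control replicate 4, 2 without P14 control replicate 2 and 3 without any 1 of 11 other libraries.

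In Casp2-depleted nuclei 3.00% of all genes were called lower from P7 to P14. The thin filament list had 4 of 13 called lower. Tpm3 had 0 reads at P14 and was at least 67.6-fold lower, Tpm1 changed by -3.26 and Nebl by -2.31. The thick filament list had 6 of 11 called lower, led by Mybpc3 (-3.46), Myom1 (-3.33) and Myom2 (-2.87). Of the kinases and phosphatases 2 of 17 were called lower, Prkar1a, from 855 to 2 reads, and Tnni3k (-2.47). Of the transcription factors 7 of 12 were called lower, among them Gata6, from 1333 to 2 reads, Hand2 (-5.48) and Mef2a (-3.70). Of the thyroid hormone list Ncor1 was called (-2.02), and of the splicing regulators Rbm20 (-2.11) and Rbm24 (-2.09). With 1 library left out, 0 to 2 genes of the thyroid hormone list and 1 to 3 splicing regulators were called lower. Of all genes, 613 were called in either direction as reported, 237 on library totals, 166 with all 24 libraries, 1171 with DESeq2 and 830 with limma-voom. On library totals and with all 24 libraries the genes called lower were 2 and 1 of the thin filament, 4 and 5 of the thick filament, 2 and 1 of the kinase and phosphatase, and 3 and 3 of the transcription factor list, while limma-voom called 0 of the thick filament and 2 of the transcription factor list and robust dispersions gave 3 of the thick filament list. With 1 library left out, 2 to 4 thin filament genes, 4 to 7 of the thick filament, 1 to 2 kinases and phosphatases and 3 to 7 transcription factors were called, the thin filament count being 2 without P7 Casp2-depleted replicate 1 or any 1 of the 3 P14 Casp2-depleted libraries. The transcription factor count was 3 without P7 Casp2-depleted replicate 1 or P14 Casp2-depleted replicate 3 or 4 and 4 without P1 Casp2-depleted replicate 1, P7 control replicate 1 or 2 or P7 Casp2-depleted replicate 2, and the kinase and phosphatase count was 1 without P14 Casp2-depleted replicate 3. No gene of these lists was called higher at P14 than at P7 in either genotype, where 0.00982% of all genes were called higher in each.

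The genes whose course over the 21 libraries was closest to that of Tnni3 were Gm57283, Clip1, Ggnbp2, Nexn and Mybpc3, with a root mean square difference of centred log2 CPM of 0.62, 0.65, 0.67, 0.68 and 0.69 among 3980 genes compared. Those closest to Tnni1 were Spaca6 (1.83), Acat1 (1.84), Rest (1.88), Gata6 (1.88) and Ivns1abp (1.94). The distances for Tnni1 were larger, and none of the 3980 genes followed it as closely as those 5 followed Tnni3. This distance grows with the size of a gene's changes, and Tnni1 fell to the value of 0 reads in the P14 controls. Spaca6, the nearest to Tnni1, had 50 reads in P14 controls and 0 in P14 Casp2-depleted libraries, the reverse order of Tnni1.

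The genotypes were compared at each day. At P7 the study, with limma and the same thresholds, reported genes that differ with loss of Casp2, among them Cdkn1a and Lin37. It reported the same finding for these genes by qRT-PCR in P7 cardiomyocytes of Casp2 knockout and wild-type mice. Why the edgeR fit below called none at P7 was not tested. At P1 and at P7 no troponin gene was called between genotypes, and of all genes 0% were called by edgeR at either day, with 1303 and 791 genes at an unadjusted p below 0.05. DESeq2 called 0.516% of all genes at P1 and 0.123% at P7, limma-voom 0.241% at P1 and 0 at P7, and neither called a troponin gene. At P1 the log2 fold changes of the 5 genes, Casp2-depleted against control, were -0.01 for Tnni1 (95% interval -1.07 to 1.05), 0.51 for Tnni3 (-0.45 to 1.47), 0.23 for Tnnt1 (-1.87 to 2.32), -0.21 for Tnnt2 (-0.73 to 0.31) and 0.05 for Tnnc1 (-0.75 to 0.84). At P7 they were 0.32 for Tnni1 (-0.67 to 1.30), -0.44 for Tnni3 (-1.32 to 0.43), -0.96 for Tnnt1 (-2.90 to 0.99), -0.25 for Tnnt2 (-0.74 to 0.23) and 0.12 for Tnnc1 (-0.62 to 0.85). The intervals leave room for differences of 2-fold or more in Tnni1, Tnni3 and Tnnt1. On library totals all 4 P7 Casp2-depleted libraries (863 to 1205 CPM) were below all 4 P7 controls (1217 to 1561 CPM) for Tnni3, an order that TMM scaling did not keep. No interaction of genotype with the step from P1 to P7 was called for any of the 5, with 0% of all genes called and 1298 at an unadjusted p below 0.05. DESeq2 called 0.324% of all genes there and limma-voom 0.0196%, and none of the 5.

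At P14 Tnni1 was called higher in Casp2-depleted nuclei by edgeR (adjusted p = 1.43e-08), where 0.0540% of all genes were called higher and 0.231% in either direction. It was at least 20.3-fold higher than the floor of the controls, a bound that is lower when a P14 control library is left out, since the floor rises. This call rests on P14 Casp2-depleted replicate 2, which held 62 of the 68 reads (91.2%). Without that library the group was at least 2.61-fold higher and the adjusted p was 0.111. The call was also absent with limma-voom (adjusted p = 0.7105, 0.570% of all genes called), with edgeR's bias-adjusted dispersion (0.314) and in a fit of the P14 libraries alone (0.9998, the highest of the alternatives), and present with DESeq2 (7.00e-05, 3.25% of all genes called) and the others, down to 6.83e-11 with robust dispersions. An exact permutation test of the 3 against 3 libraries gave p = 0.1, two-sided, the smallest it can give. Replicate 2 also held 59 of 75 Tnnt1 reads and 1433 of 2046 Tnnc1 reads of its group, but 119 of 440 Tnni3 reads. Of the 20368 genes tested, 135 had 0 reads in all P14 controls and reads in all P14 Casp2-depleted libraries, and 65 the converse.

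The other 4 genes were not called at P14, where 0.177% of all genes were called lower. Tnnc1 was lower by -1.36 on the log2 scale (95% interval -2.23 to -0.50, adjusted p = 0.207 from edgeR). It was called without P14 control replicate 2 (-1.64, adjusted p = 0.0419) and without P14 Casp2-depleted replicate 2 (-2.61, adjusted p = 0.00157). The latter was the lowest of alternatives that ran from -2.61 to -0.94. These fits called 249 of 20160 and 149 of 20232 genes in either direction, against 47 as reported. With edgeR's bias-adjusted dispersion the call was absent without P14 control replicate 2 (adjusted p = 0.112). It was present there without P14 Casp2-depleted replicate 2 (0.0267). Tnni3 differed by -1.36 (-2.39 to -0.33, adjusted p = 0.349), Tnnt1 by -1.04 (-3.31 to 1.23) and Tnnt2 by -0.39 (-0.95 to 0.17). Without P14 control replicate 1, which held the most Tnni3 and Tnnt1 of its group, the direction of both turned, to 0.10 (SE 0.57) for Tnni3 and 3.45 (SE 1.53) for Tnnt1, neither of them called. With all 24 libraries Tnnt2 was called lower (-1.33, adjusted p = 0.00204), where 42 of 20583 genes were called in either direction. The interaction of genotype with the step from P7 to P14 was called for Tnni1 (adjusted p = 2.78e-05 from edgeR, 0.0344% of all genes called) and rested on the same library, with an adjusted p of 0.239 without it. It was also not called by limma-voom (0.819, with 0.0295% of all genes called) or with the bias-adjusted dispersion (0.746), and was called by DESeq2 (0.00152, with 1.21%). Tnnc1 was called in that interaction only without P14 Casp2-depleted replicate 2 (-2.73, adjusted p = 0.0183), against -1.48 (adjusted p = 0.416) with it. Without that library 47 of 20232 genes were called in the interaction, against 7 as reported. The interaction was tested on genes chosen with their course over the days known, which its adjusted p does not allow for.

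**Figure D4:**
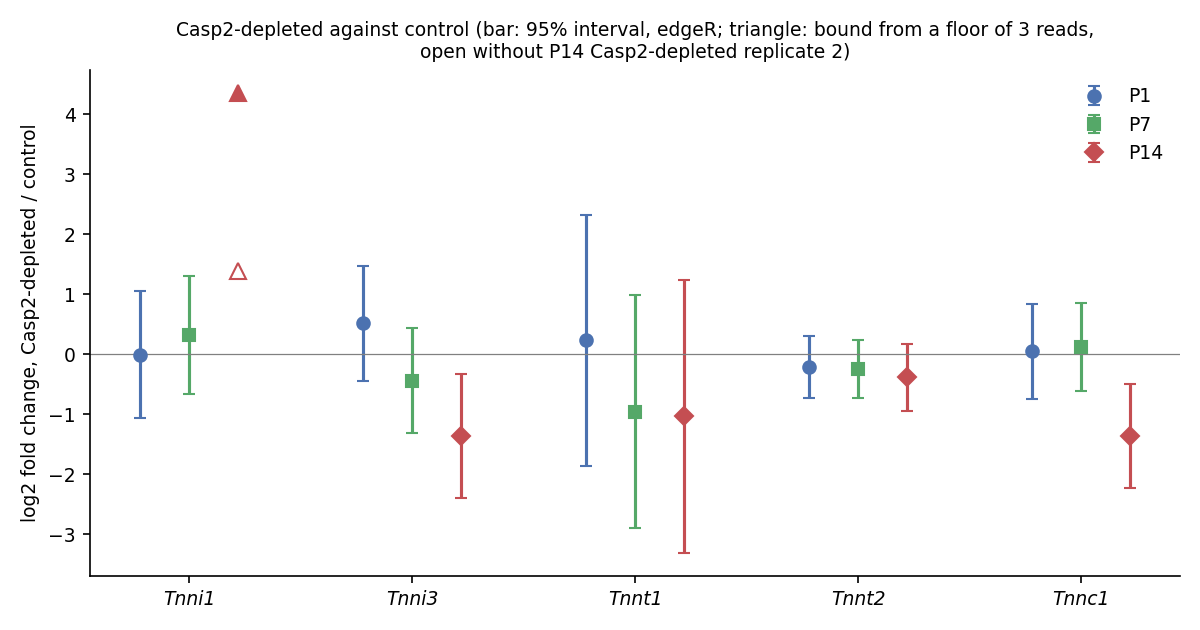
Casp2-depleted against control for each gene and day as log2 fold change with its 95% interval (edgeR). Triangles are the bounds for Tnni1 at P14, at least 20.3-fold higher with all 3 Casp2-depleted libraries and 2.61-fold (open) without replicate 2. All intervals at P1 and P7 cross 0, and at P14 those of Tnni3 and Tnnc1 lie below 0 before adjustment over all genes. Tnni3 is at 0.10 without P14 control replicate 1. Without P14 Casp2-depleted replicate 3 both genes differ by less than 2 standard errors (Tnni3 -0.75, SE 0.57, and Tnnc1 -0.94, SE 0.48). Tnni3 also differs by less than 2 standard errors with filterByExpr, DESeq2, limma-voom, a replicate block, only the groups compared or robust dispersions. Tnnc1 does so with limma-voom.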

How the data were processed

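RNA of PCM1-sorted cardiomyocyte nuclei was sequenced as 3′ tags (QuantSeq, 100-base single-end reads). The authors trimmed the reads with cutadapt 4.0, checked them with FastQC 0.11.8, aligned them with STAR 2.6.1e to GRCm39 and deposited counts of reads per gene from HTSeq 2.0.3 over exons and introns, raw and not normalized. The strand setting and use of molecular identifiers are not given in the sources used here. Symbols and positions are from GENCODE vM39, which names 56236 identifiers holding 99.5% of reads. Reads on no gene (34.3 to 76.1% per kept library) stayed out of library sizes. Groups follow the labels, and each replicate is a pool of hearts.

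The 20368 genes tested had 10 or more reads over the 21 kept libraries and were read in 3 or more of them. They were tested with edgeR 4.0.16 in R 4.3.3 (TMM, quasi-likelihood F-test, 6 group means, 15 residual degrees of freedom). The code was also run on simulated counts with a smaller spread between libraries than these data. That run checks the code and cannot check the calls reported here. Standard errors are the log2 fold change over the root of F. Python 3.11.15, pandas 2.3.3, scipy 1.17.1 and matplotlib 3.10.9 were used. Alternatives were other filters and scalings, DESeq2 1.42.0, limma-voom (limma 3.58.1), all 24 libraries, only the groups compared, a replicate block and each library left out. The bias-adjusted and robust dispersion settings of edgeR and the counts of list genes under each alternative were added after seeing the data. The genes and lists were chosen with earlier results of these data known. Named were the 5 genes, the fast skeletal troponins, at most the 3 called genes of largest change per list and comparison, and the 5 genes nearest to Tnni1 and Tnni3 with mean log2 CPM of at least 5. Replicate libraries all differed by more than sampling noise (chi-square per degree of freedom 17.8 to 76.3 over 27 pairs).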

Additional observations from a re-analysis of the deposited data

Results flagged for a closer look

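The step of Tnni1 from P7 to P14 differed between genotypes by edgeR's interaction test (adjusted p = 2.78e-05), with 0 reads in the 3 P14 controls against 62, 5 and 1 in the P14 Casp2-depleted libraries. This call was lost without P14 Casp2-depleted replicate 2 (adjusted p = 0.239), with limma-voom (0.819) and with the bias-adjusted dispersion (0.746), and its origin was not tested. Tnni1 was chosen with its course over the days known, which the adjusted p does not allow for.

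The 3 libraries the study left out held troponin signal above the kept libraries of their group in 5 cases, on CPM of reads on genes. P1 control replicate 1 held 1185 CPM of Tnni1 and 816 CPM of Tnni3, above the highest kept P1 controls (1165 and 764 CPM), with a slow share of 59.2% within their range. The study left this library out because it read its signal as a sign of contamination from the cytoplasm. Of its reads 9.21% fell on no gene, against 60.7 to 73.9% in the kept P1 controls. P14 control replicate 3, with 2049 genes detected, held 19170 CPM of Tnnt2, against at most 4678 CPM in the kept P14 controls, and 0 reads of Tnni1. P14 Casp2-depleted replicate 1, with 4285 genes detected, held 6005 CPM of Tnnt2 and 1321 CPM of Tnnc1, against at most 3780 and 1227 CPM, and 0 reads of both troponin I genes. By Dixon's criterion 1 library stood apart within a group of 4. On CPM of reads on genes, Tnnc1 was 3167 CPM in P7 Casp2-depleted replicate 2 and 1539, 1659.65 and 1659.66 CPM in the others, a gap of 0.926 of the range. It did not pass on the TMM scales. This was 1 of 45 ratios over the 5 genes and 3 scales, and chance flags about 1 in 20 groups.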

How the results depend on the processing

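Of 381 values of the 17 comparison results under alternatives, 360 stayed with the reported value and 21 moved, and no called value changed sign. The number of troponin genes called at P14 between genotypes, 1 as reported, was 0 with limma-voom, with only the groups compared and with the bias-adjusted dispersion, 2 with all 24 libraries and 1 to 2 when 1 library was left out (2 without P14 control replicate 2). Without P14 Casp2-depleted replicate 2 the 1 gene called was Tnnc1 and no longer Tnni1. In the interaction from P7 to P14, 1 as reported, it was 0 with limma-voom and with the bias-adjusted dispersion, and 1 whichever library was left out, with Tnnc1 in place of Tnni1 without P14 Casp2-depleted replicate 2. From P1 to P7, 1 of the 5 genes lay below 0. In controls this was 3 on library totals, 2 with limma-voom and 1 to 3 without 1 library. In Casp2-depleted nuclei it was 2 with RLE size factors, 3 on library totals, 2 with DESeq2 and 1 to 3 without 1 library. Tnni1 lay below 0 and Tnni3 above 0 in each of these settings. Per kb of gene span the median slow share was 28.6% and 26.1% at P1 and 4.93% and 7.88% at P7, in control and Casp2-depleted libraries. The cause of these shifts was not tested beyond the length scaling itself. With 1 library left out, the median slow share was 60.9 to 79.9% (P1 control), 51.4 to 74.6% (P1 Casp2-depleted), 19.4 to 23.7% (P7 control), 30.0 to 32.6% (P7 Casp2-depleted), 0% (P14 control) and 5.61 to 22.6% (P14 Casp2-depleted). At P1, limma-voom gave Tnnt2 an adjusted p of 0.00234 at a log2 fold change of -0.89, under the fold limit. Same-numbered libraries of the genotypes, whose number the deposited data call a batch, were not taken as pairs, since their deviations correlated by -0.06 to 0.19 and above 0.1 in 1 of 9 pairs. A replicate block left 1 troponin gene called at P14 and 1 in that interaction and changed no troponin call (Tnni1 at P14, adjusted p = 1.98e-07), and the genes called at P14 over all genes went from 47 to 9 with it, 9 with filterByExpr, 16 on library totals, 116 with limma-voom, 3 with the bias-adjusted dispersion, 0 with only the groups compared, 662 with DESeq2 and 249 without P14 control replicate 2. Few troponin I reads limit the slow shares at P14, where single kept libraries held 46 to 808 of them.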
